A study of Mus musculus with 2 samples.

Results

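The creatine kinases and phosphotransfer genes described here are 8 listed genes, found by their symbols. They are the cytosolic creatine kinases Ckm and Ckb, the mitochondrial creatine kinase Ckmt2, the creatine synthesis enzyme Gamt, the creatine transporter Slc6a8, and the adenylate kinases Ak1, Ak3 and Ak4. Of these 8 symbols, 7 stood among the 19465 genes counted, and Ak1 was not analysed here. All 7 measured genes passed the minimum of 20 UMIs (unique molecular identifiers, which count captured probe molecules) summed over both sections.

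The data were 2 formalin-fixed heart sections from mice, 1 per group, captured with the Visium CytAssist assay, in which gene-specific probes are counted over an array of barcoded spots. The control heart was α-MHC-MerCreMer+/−, and the TOP2B transgenic heart was α-MHC-MerCreMer+/− hTOP2BLSL/−, with a human TOP2B cDNA under the CAG promoter behind a stop cassette that Cre removes. Both genotypes carried the MerCreMer recombinase, driven in cardiomyocytes by the α-MHC promoter, and both received 1 intraperitoneal dose of 80 mg/kg tamoxifen. The methods give 6 weeks as the age at tamoxifen, and the time from tamoxifen to the collection of these sections is not given in the sources used here. No group without MerCreMer or without tamoxifen was analysed here, so effects that both hearts share cannot be seen.

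Creatine kinases move a phosphate group between ATP and creatine. In heart muscle the mitochondrial form charges creatine where ATP is made, and the cytosolic forms return the phosphate to ATP where myosin and ion pumps use it. The M form is the main cytosolic form of adult striated muscle, whereas the B form is found in brain, smooth muscle and the developing heart. Adenylate kinases exchange phosphate among adenine nucleotides and so link the ATP balance to AMP.

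There were 1256 spots with 14376300 UMIs in the control and 924 spots with 12953389 UMIs in the transgenic section, and the median spot held 11336 and 14531 UMIs. Levels are given as CPM, the UMIs of a gene per 1000000 UMIs of the section, and a log2 ratio sets the transgenic level against that of the control. With 1 section per group there was no replicate check and no test, and the intervals in parentheses are 95% intervals that cover counting error only. Each section was also cut into 4 quadrants at the median array row and column, and the range over quadrants is the spread inside a section, not between mice. The median log2 ratio over the 15236 genes with at least 20 UMIs was 0.20, so a gene with a ratio of 0 stood below the median gene. Probe efficiency differs between genes, so levels were compared between sections and not between genes. A spot can hold cells of several types, and fewer cells of a type cannot be told apart from less RNA per cell. Mouse Top2b stood at 106 CPM in control tissue and 102 CPM in transgenic tissue, and because the transgene is human, this value does not check the genotype labels. Cardiomyocyte genes made up 5.47% of UMIs in the control and 4.80% in the transgenic section over 9 measured genes of 10 listed. Of these 9, 7 were lower and 2 higher in the transgenic section. Tpm1 was the highest of them in both, at 14766.5 and 14743.2 CPM, so the sum can hide larger differences of single genes.

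Promoters of 6 of the 7 measured genes were matched by symbol in RefSeq, on build GRCm38.p6. Those of the 3 creatine kinases are printed because these genes differed between the sections in opposite directions. Each line gives the 150 bases before the annotated start, 5′ to 3′ on the gene's strand, with capitals for matches to 3 motifs searched on both strands. The E-box was searched as CANNTG, where N is any base. The TATA box was searched as TATAAA, and this motif and the E-box share no letters in these windows. The half-site of estrogen-related receptors was searched as TNAAGGTCA.
Ckm, plus strand, chr7:19410944-19411093: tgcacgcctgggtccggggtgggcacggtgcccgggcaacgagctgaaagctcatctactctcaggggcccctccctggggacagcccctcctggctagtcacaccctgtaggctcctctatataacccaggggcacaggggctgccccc
Ckmt2, minus strand, chr13:91876886-91877035: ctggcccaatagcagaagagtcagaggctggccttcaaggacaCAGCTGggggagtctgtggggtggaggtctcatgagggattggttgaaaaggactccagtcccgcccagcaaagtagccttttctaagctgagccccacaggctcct
Ckb, minus strand, chr12:111672339-111672488: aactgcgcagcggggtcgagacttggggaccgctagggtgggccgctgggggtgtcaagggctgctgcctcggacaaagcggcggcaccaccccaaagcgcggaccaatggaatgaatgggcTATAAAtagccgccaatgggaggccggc
The Ckb promoter held TATAAA starting 28 bases before the start, a motif found within 250 bases before the start in 13.0% of the 27025 promoters in RefSeq's table. Ckm had no TATAAA, but its printed stretch holds the similar letters tatataa, which were not searched. The search therefore does not show that Ckb and Ckm differ in having a TATA box. Ckmt2 had 4 E-boxes in those 250 bases, of which the one in capitals lies nearest to the start. Ckm had 1 E-box, 249 bases before the start and outside the printed stretch. An E-box stood in 66.0% of all promoters, so its presence is common. The receptor half-site, found in 1.14% of promoters, had no match in the 6 promoters, which says only that these letters are absent from this window.

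In the transgenic section, Ckm and Ckmt2 fell to less than 50% of their control level, while Ckb, of which far fewer UMIs were counted, was higher. Ckm (ENSMUSG00000030399), the muscle-type creatine kinase, had 67998 UMIs or 4730 CPM in the control and 23033 UMIs or 1778 CPM in the transgenic section. Its control quadrants lay at 4680, 4900, 4809 and 4510 CPM, and its transgenic quadrants at 2218, 1141, 2446 and 1225 CPM. Every transgenic quadrant thus lay far below every control quadrant, with the lowest levels in the quadrants on the high-column side of the tissue. The log2 ratio was -1.41 (-1.43 to -1.39), a 2.66-fold lower level.

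Ckb (ENSMUSG00000001270), the brain-type enzyme, had 951 UMIs in the control and 1536 in the transgenic section. The control quadrants held 64.2, 71.0, 66.2 and 62.8 CPM, and the transgenic quadrants held 118, 124, 115 and 117 CPM. Unlike Ckm, Ckb differed little among the transgenic quadrants, and these stood above all control quadrants. Over whole sections the level went from 66.2 to 119 CPM, a log2 ratio of 0.84 (0.72 to 0.96), or 1.79-fold.

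Ckmt2 (ENSMUSG00000021622), the sarcomeric mitochondrial creatine kinase, had 43713 UMIs in the control and 16722 in the transgenic section. Control quadrants ranged only from 2976 to 3088 CPM, whereas the transgenic quadrants lay at 1638, 759, 1878 and 813 CPM. The same quadrants were low as for Ckm. Ckmt2 went from 3041 to 1291 CPM, with a log2 ratio of -1.24 (-1.26 to -1.21), or 2.36-fold lower. Over whole sections, Ckmt2 UMIs per Ckm UMI were 1.13-fold (1.11 to 1.15) higher in the transgenic section, so Ckmt2 fell slightly less than Ckm. This was not uniform. Over the transgenic quadrants, in the same order, Ckmt2 per 100 Ckm UMIs was 73.9, 66.6, 76.8 and 66.4, beside 63.0 to 67.0 over control quadrants. From the transgenic spots poorest to those richest in cardiomyocyte genes it was 60.3, 69.1 and 79.3, beside 64.3 in the whole control section.

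**Figure D1:**
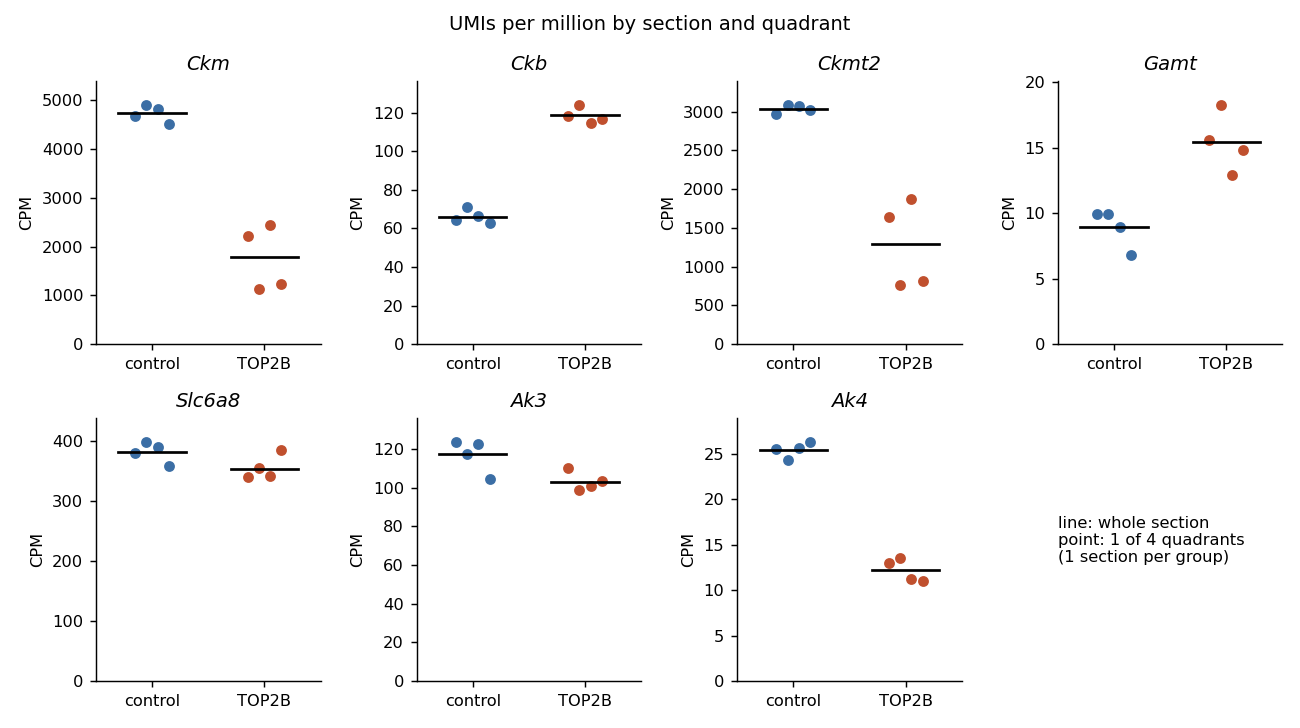
Level in CPM (vertical axes, from 0) of the 7 measured genes in the control and TOP2B transgenic section, with a line for the whole section and a point for each of 4 quadrants. The transgenic quadrants lie below all control quadrants for Ckm, Ckmt2 and Ak4 and above them for Ckb and Gamt. For Slc6a8 and Ak3 the ranges of quadrants overlap, with most transgenic quadrants below the control range.

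The Ckb share, that is Ckb UMIs over the sum of Ckm and Ckb UMIs, was 1.38% (1.29 to 1.47) in the control and 6.25% (5.95 to 6.56) in the transgenic section. Control quadrants lay between 1.35% and 1.43%, and transgenic quadrants between 4.48% and 9.81%. The share does not depend on how the sections are scaled, but because the probes of both genes can differ in efficiency it is no ratio of molecules. Ckb UMIs per Ckm UMI were 4.77-fold (4.39 to 5.18) higher, a log2 difference of 2.25. With CPM, 1.41 of this was the fall of Ckm and 0.84 the higher Ckb. Unlike the share, this division depends on the scaling, and with TMM factors the log2 ratios were -1.57 for Ckm and 0.68 for Ckb. Ckm fell by 2952 CPM and Ckb was 52.4 CPM higher, so Ckm and Ckb UMIs together went from 4796 to 1897 CPM. All 3 creatine kinases made up 0.784% of UMIs in the control and 0.319% in the transgenic section.

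Spots, which hold the same UMIs as the sums above, showed the same shift. Among spots with at least 10 Ckm and Ckb UMIs, 1243 of 1256 in the control and 815 of 924 in the transgenic section, the median Ckb share was 1.16% and 5.36%. At the 90th percentile it was 3.85% and 17.8%. Because the minimum counts Ckm itself, it left out spots with few Ckm UMIs, and more of them in the transgenic section. Counting error of single spots is part of these percentiles. It weighs more in the transgenic section, with a mean of 24.9 Ckm UMIs per spot beside 54.1 in the control. Over all spots, with no minimum of UMIs, Ckb exceeded Ckm in 0 control spots and in 2 transgenic spots, so Ckm UMIs remained in excess nearly everywhere.

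Gamt (ENSMUSG00000020150), which carries out the last step of creatine synthesis, had 129 UMIs in the control and 200 in the transgenic section. Control quadrants were at 9.97, 9.95, 8.93 and 6.81 CPM, and transgenic quadrants at 15.6, 18.3, 12.9 and 14.8 CPM. The groups of quadrants did not overlap, although each quadrant rested on 23 to 66 UMIs. The log2 ratio was 0.78 (0.46 to 1.11).

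Slc6a8 (ENSMUSG00000019558), the carrier that brings creatine into the cell, was at 383 CPM in the control section and at 354 CPM in the transgenic one. Its quadrants overlapped, from 358 to 399 CPM in the control and from 340 to 385 CPM in the transgenic section. The log2 ratio of -0.11 (-0.17 to -0.06) was small beside those of the creatine kinases, and the difference lay within the spread of quadrants.

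Of the adenylate kinases, Ak4 was lower and Ak3 differed little. Ak4 (ENSMUSG00000028527), of the mitochondrial matrix, had 366 UMIs in the control and 159 in the transgenic section. Its quadrants held 25.6, 24.4, 25.6 and 26.4 CPM in the control and 13.0, 13.6, 11.2 and 11.0 CPM in the transgenic section, without overlap. The level fell from 25.5 to 12.3 CPM, with a log2 ratio of -1.05 (-1.33 to -0.78), so that the interval includes falls smaller than 2-fold. Ak3 (ENSMUSG00000024782), the GTP:AMP phosphotransferase of the matrix, went from 117 to 103 CPM with a log2 ratio of -0.19 (-0.29 to -0.08). Its quadrants overlapped, from 104 to 124 CPM in the control and from 98.6 to 110 CPM in the transgenic section. With TMM factors or DESeq2 size factors, which set the transgenic section lower as a whole, the quadrants of Slc6a8 and Ak3 no longer overlapped, and 5 members lay below the control. The same share over all genes under these factors is not given here, so this count has no reference.

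Taken by count, 3 of the 7 measured genes (Ckm, Ckmt2 and Ak4) were at least 2-fold lower, against 5.61% of all 15236 genes tested. None of the 7 was at least 2-fold higher, against 13.7% of all genes. Ckm, Ckmt2 and Ak4 were also the 3 genes whose transgenic quadrants all lay below the control quadrants, which held for 13.1% of all genes. Ckb and Gamt were the 2 genes with all transgenic quadrants above, against 30.3% of all genes, so a higher level of that kind was common in this section. The median log2 ratio of the 7 genes was -0.19, beside 0.20 over all genes.

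The share of spots with at least 1 UMI followed the levels. Ckm was detected in 99.6% of control and 97.0% of transgenic spots, and Ckmt2 in 99.4% and 96.6%, so both genes were found nearly throughout both sections. Ckb was detected in 52.0% of control and 74.4% of transgenic spots, and Gamt in 9.16% and 19.4%. After thinning each spot to 8134 UMIs, since transgenic spots were deeper, the shares were 41.2% and 60.3% for Ckb and 6.91% and 12.0% for Gamt. For Ak4 the share went from 24.4% to 15.2%, or from 17.8% to 9.57% after thinning. Ak3 was detected in 70.8% of control and 73.3% of transgenic spots, but in 60.9% and 57.5% after thinning, so the order of the sections turned with depth.

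Ckm and Ckmt2 were nearly even across the control section and graded across the transgenic section. Moran's I, a measure of how alike neighboring spots are that the authors deposited, was 0.07 for Ckm in the control and 0.70 in the transgenic section, and 0.14 and 0.70 for Ckmt2. Slc6a8 went from 0.04 to 0.22, while the remaining members stayed at or below 0.07 in both sections. Sparse counts keep Moran's I low, so the values of Ckb, Gamt and Ak4 say little about their layout. Per spot, the 10th and 90th percentiles of Ckm were 35.5 and 58.5 UMIs per 10000 in the control, and 5.86 and 33.0 in the transgenic section.

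**Figure D2:**
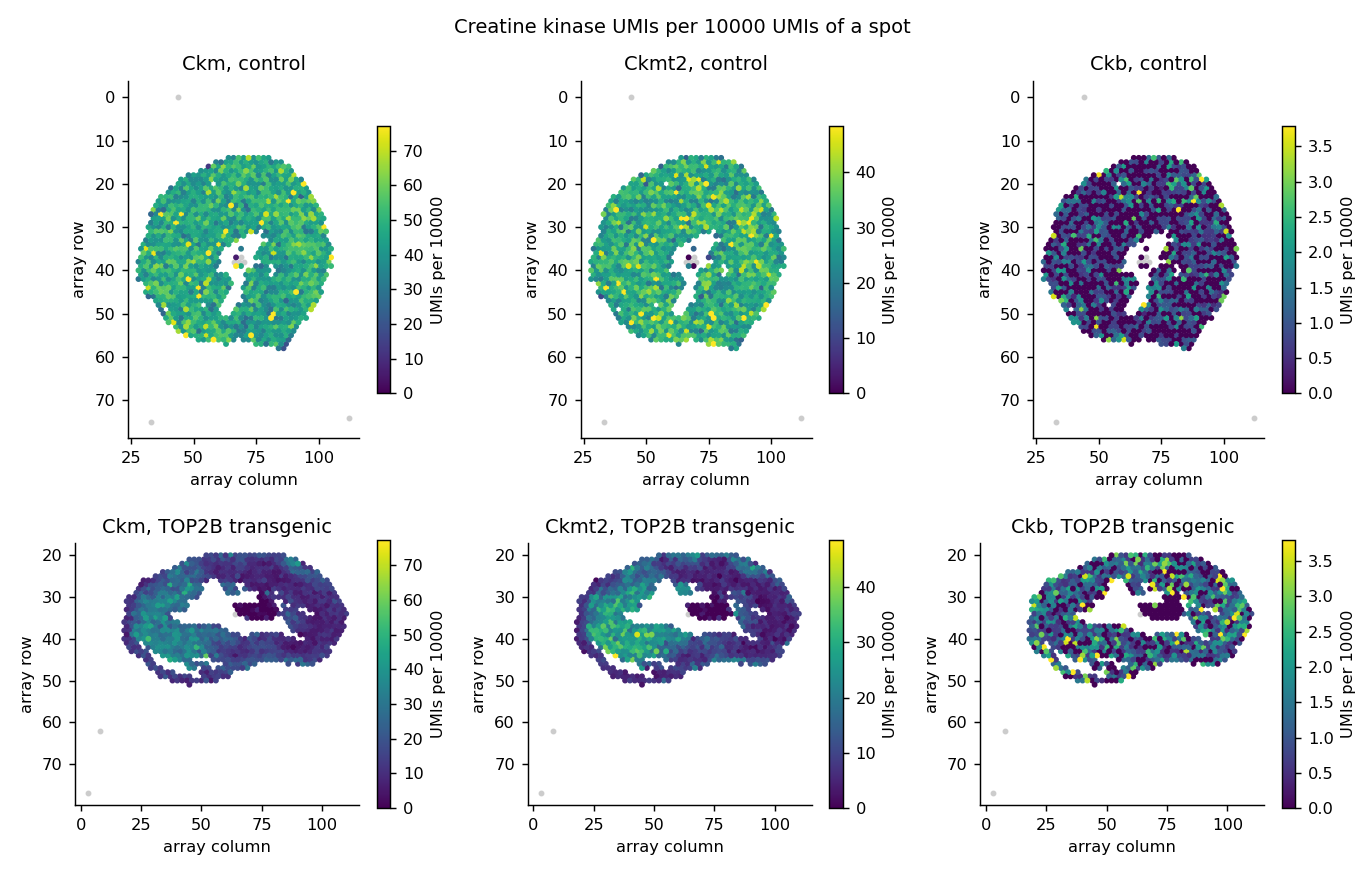
Maps of Ckm, Ckmt2 and Ckb in UMIs per 10000 UMIs of each spot (color), by array column and row, for the control section (top) and the TOP2B transgenic section (bottom), with the same color scale for both sections of a gene and gray for spots under 1000 UMIs. Ckm and Ckmt2 are even in the control, while in the transgenic section they are higher on the low-column side, and Ckb shows no such grading by eye. The dark patch inside the transgenic section is rich in erythroid genes.

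Tiles of 6 array rows by 12 array columns with at least 18 spots gave 37 control and 28 transgenic tiles, in which counts are less sparse. Ckm ranged from 4255 to 5256 CPM over control tiles, or 1.24-fold. One transgenic tile of 28 spots took 65.7% of its UMIs from erythroid genes, which lowers the CPM of every other gene there, so tile values are given without it. Over the remaining 27 tiles, Ckm ranged from 795 to 3368 CPM, or 4.24-fold, and its highest tile lay below the lowest control tile. Ckmt2 ranged from 2713 to 3393 CPM over control tiles and from 471 to 2780 CPM over these transgenic tiles, so that its highest transgenic tiles reached the lowest control tile. Ckb ranged from 35.0 to 106 CPM in the control and from 94.3 to 167 CPM in the transgenic tiles. The Ckb share ran from 0.774% to 2.42% over control tiles and from 2.91% to 15.2% over the 27 transgenic tiles, without overlap.

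Across tiles, Ckm and Ckmt2 moved together in the transgenic section, with a Pearson r of 0.97 over log2(CPM + 1) in 27 tiles, beside 0.30 in 37 control tiles. Tiles of a section share a library and their neighbors' tissue, and the narrow range of both genes in the control limits any correlation there, so these values are descriptions. Ckm and Ckb had an r of -0.41 in the transgenic and -0.06 in the control section. Slc6a8 ran against Ckm in the transgenic tiles with an r of -0.57, beside 0.40 in the control. With the erythroid-rich tile included, the transgenic r of Ckm turned to 0.21 with Ckb and to 0.28 with Slc6a8, while with Ckmt2 it was 0.98.

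Of the genes with at least 1000 UMIs, those most like Ckm over the 27 transgenic tiles were Cyc1 (r = 0.97), Ckmt2 (0.97) and Sdhb (0.97), out of 2337 genes ranked. With all 28 tiles they were Ckmt2 (0.98), Uqcrfs1 (0.97) and Ndufb9 (0.97). Cyc1, Sdhb, Uqcrfs1 and Ndufb9 encode subunits of respiratory chain complexes. In the control they were Mpc2 (0.70), Endog (0.62) and Coq9 (0.61). For Ckb the nearest genes were Laptm4a (0.68), Id3 (0.63) and Dpf2 (0.61) over the 27 transgenic tiles, and Laptm4a (0.90), Bcl7c (0.88) and Zmpste24 (0.87) over all 28. In the control the nearest were Mfge8 (0.55), Zadh2 (0.53) and Cox14 (0.53). Control tiles held as few as 9 Ckb UMIs. Adding the erythroid-rich tile also took the r of Ckb with Slc6a8 from 0.37 to 0.83, so values over all 28 tiles reflect that tile in part. The genes named are the highest of all those ranked, and whether their r exceeds what such a ranking gives by itself was not tested.

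**Figure D3:**
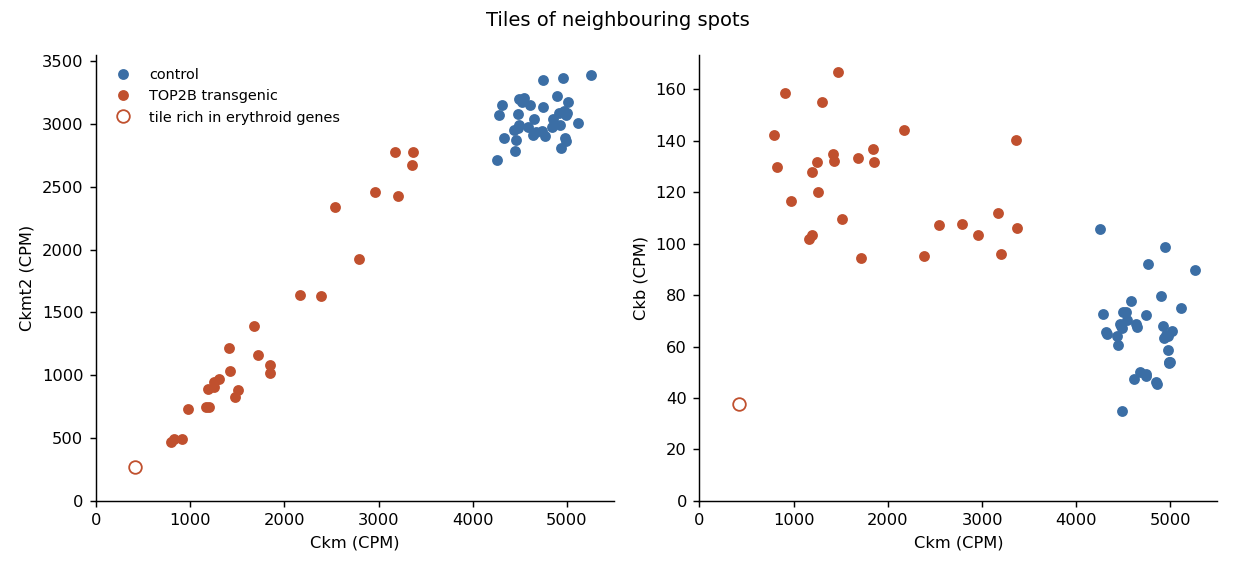
Ckmt2 against Ckm (left) and Ckb against Ckm (right), both in CPM, where each point is 1 tile of neighboring spots, with 37 control tiles, 27 transgenic tiles and an open circle for the transgenic tile rich in erythroid genes. Ckmt2 and Ckm rise together over the transgenic tiles, and the control tiles form a compact group at high Ckm and low Ckb.

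Within the transgenic section, Ckm and Ckmt2 were highest in spots rich in other cardiomyocyte genes, and Ckb was not. Spots were ranked by the share of UMIs from the 9 cardiomyocyte genes, which do not include creatine kinases. In the 308 transgenic spots with the lowest share, the 308 in the middle and the 307 with the highest, Ckm was at 971, 1764 and 2526 CPM. Ckmt2 was at 585, 1219 and 2004 CPM in the same spots, a steeper rise with a log2 ratio of highest over lowest of 1.78 (1.71 to 1.84) beside 1.38 (1.33 to 1.43) for Ckm. Ckb was at 130, 119 and 108 CPM, and the Ckb share at 11.8%, 6.33% and 4.09%. The share thus differed among transgenic spots mainly through its Ckm part.

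The cardiomyocyte genes differed less across these spots than Ckm and Ckmt2 did, at 3.77%, 4.84% and 5.69% of UMIs. Per 1000 UMIs of cardiomyocyte genes, Ckm had 25.7, 36.5 and 44.4 UMIs from the lowest to the highest group, beside 86.4 in the whole control section. The erythroid share was 4.68%, 0.941% and 0.747%, and the macrophage share 0.0676%, 0.0577% and 0.0465%. The fibroblast share was 0.241%, 0.187% and 0.139%, and the smooth muscle share 0.113%, 0.0860% and 0.0610%. The part of these cell types in the result was not tested. In the control, Ckm hardly differed across the same split, with 4625, 4754 and 4798 CPM, and neither did the Ckb share, with 1.49%, 1.26% and 1.40%. Per 1000 UMIs of cardiomyocyte genes, control Ckm ran the other way, with 92.6, 88.0 and 80.5 UMIs from the lowest to the highest group.

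The transgenic spots richest in cardiomyocyte genes were also set against the whole control section, which is not a matched group of spots. In those 307 spots, the log2 ratio to the whole control section was -0.91 for Ckm, -0.60 for Ckmt2, 0.70 for Ckb and -0.90 for Ak4. It was -0.22 for Slc6a8 and -0.23 for Ak3. The part of cell types in these ratios was not tested. Gamt was at 10.1 CPM there and at 20.5 CPM in the spots with the lowest share. Its log2 ratio to the whole control section was thus 0.17 (-0.35 to 0.67) and 1.19 (0.78 to 1.60). Control Gamt also differed across this split, at 12.0 CPM in the lowest and 7.91 CPM in the highest group. Between the 50% of spots richest in cardiomyocyte genes of each section, its log2 ratio was 0.79. Slc6a8 went from 372 to 328 CPM and Ak3 from 105 to 99.6 CPM between the lowest and the highest group, both small steps.

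Spots were also ranked by the smooth muscle genes, because smooth muscle is a known site of Ckb. In the control, Ckb was at 58.2, 66.9 and 73.1 CPM from the spots poorest to those richest in these genes, while Ckm stayed between 4679 and 4756 CPM. In the transgenic section Ckb was at 103, 119 and 132 CPM, and its lowest group lay above the highest control group. The part of smooth muscle in the Ckb level was not tested. The smooth muscle genes themselves made up 0.0821% of UMIs in the control and 0.0860% in the transgenic section, with 8 of 8 genes measured and none at 0. Behind these similar sums, 6 of the 8 genes were higher and 2 lower. Smtn was the highest of them in the control and Acta2 in the transgenic section. Ckm fell across the same transgenic groups, from 2208 to 1871 and 1303 CPM, as did Ckmt2, from 1716 to 1401 and 802 CPM. The Ckb share was at 4.47%, 5.98% and 9.17%. Across these transgenic groups the cardiomyocyte genes were at 5.03%, 4.91% and 4.47% of UMIs, the fibroblast genes at 0.143%, 0.176% and 0.238%, and the erythroid genes at 4.33%, 1.19% and 0.867%, and their part in the result was not tested.

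The Myh7 share, that is Myh7 UMIs over the sum of Myh6 and Myh7 UMIs, marks the slow myosin heavy chain in mouse ventricle and was 0.182% in the control and 57.8% in the transgenic section. Among transgenic spots grouped by it, with 295 spots per group and shares of 44.8%, 57.7% and 68.0%, Ckm was at 2257, 1822 and 1282 CPM. Ckmt2 was at 1696, 1344 and 847 CPM, and Ckb at 115, 113 and 132 CPM. The log2 ratio of highest over lowest was -0.82 (-0.86 to -0.77) for Ckm and 0.20 (0.03 to 0.38) for Ckb. The Ckb share was 4.84%, 5.83% and 9.34%. The cardiomyocyte genes were at 4.97%, 5.00% and 4.56% of UMIs, and the fibroblast genes at 0.161%, 0.184% and 0.224%. The erythroid genes were at 0.779%, 1.12% and 1.61%, and the smooth muscle genes at 0.0727%, 0.0810% and 0.108%. The part of these cell types was not tested. Slc6a8, at 330, 361 and 383 CPM, was higher with the Myh7 share, while Ak4, at 12.8, 12.0 and 12.4 CPM, showed no step beyond its counting error.

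**Figure D4:**
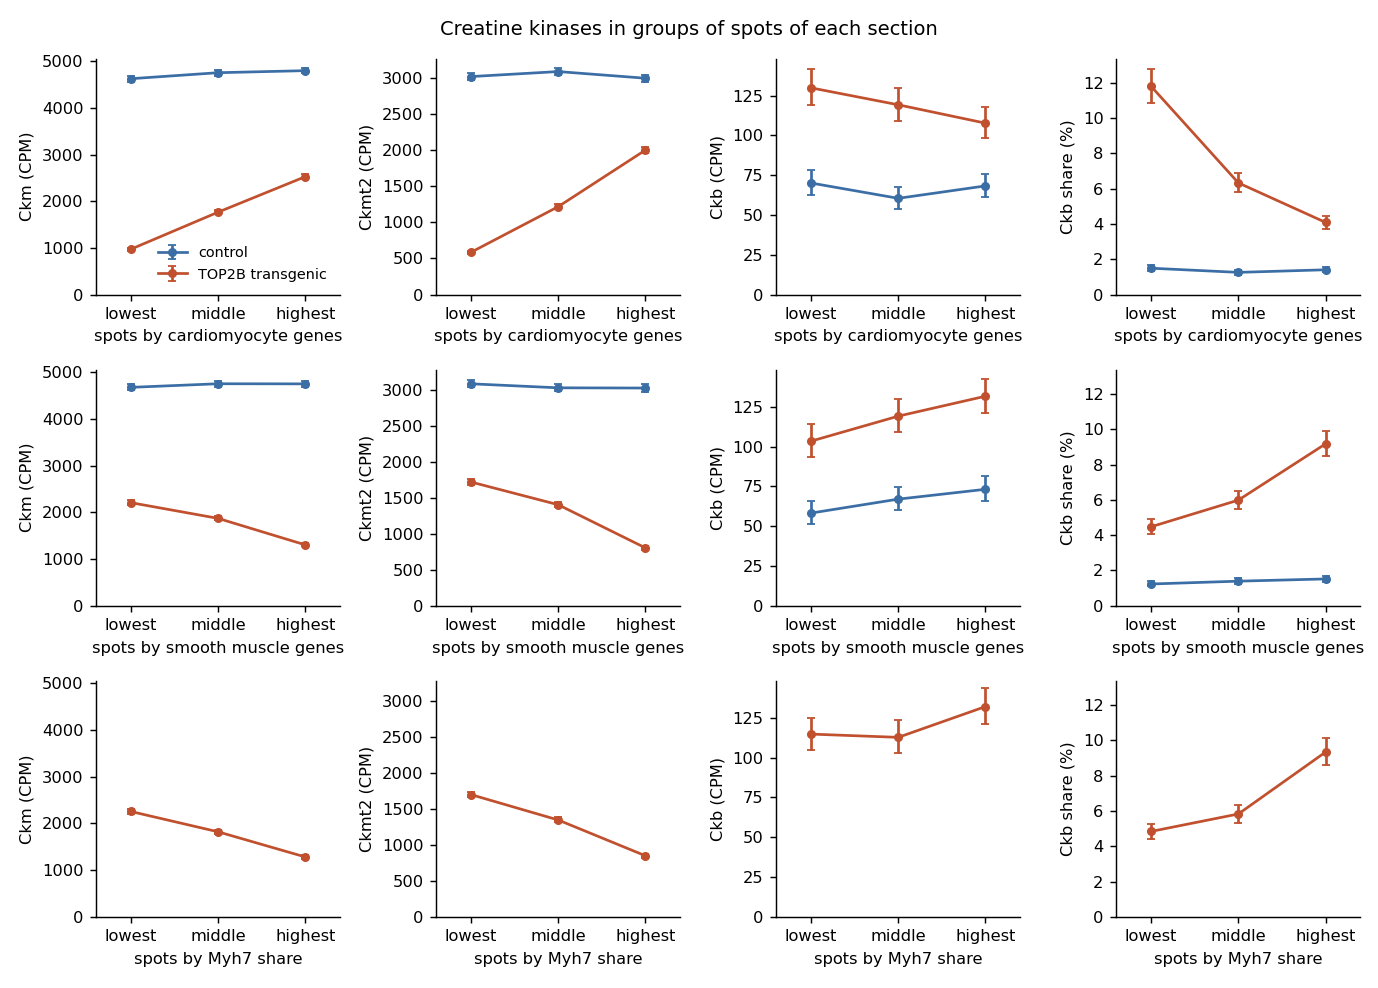
Ckm, Ckmt2 and Ckb in CPM and the Ckb share in percent (columns, vertical axes from 0) in spots grouped from lowest to highest by their share of cardiomyocyte genes, of smooth muscle genes and by the Myh7 share (rows), with 95% counting intervals. Control lines are flat for Ckm and Ckmt2, while transgenic Ckm and Ckmt2 follow the cardiomyocyte genes and run against the other measures, and the Ckb share does the opposite. The Myh7 grouping was made in the transgenic section alone.

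Position at the tissue border mattered little in the transgenic section. Ckb in the control was at 80.4 CPM in 230 edge spots and 63.8 CPM in 1026 interior spots, 0.33 apart on the log2 scale, whereas in transgenic tissue it was at 118 CPM in 311 edge spots and 119 CPM in 613 interior spots. Ckm was at 4580 and 4754 CPM in the control and at 1676 and 1818 CPM in the transgenic section, so both sections had slightly less Ckm at the edge.

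Genes of other cell types also differed between the sections. The fibroblast genes made up 0.124% of UMIs in the control and 0.187% in the transgenic section, with 7 of 7 higher, and the macrophage genes 0.0295% and 0.0570%, with 7 of 8 higher. The erythroid genes went from 0.215% to 2.04%, led by Hba-a2, with 6 of 6 measured genes higher. No measured gene of these lists was at 0 in either section. Skeletal muscle genes, a list that does not hold Ckm, made up 0.00102% and 0.00471%, with 6 of 8 higher, and atrial genes 0.00214% and 0.00584%, with 3 of 4 higher. The part of these cell types in the member results was not tested. In the 50% of spots of each section poorest in erythroid genes, the log2 ratio was -1.46 for Ckm, -1.34 for Ckmt2, -1.18 for Ak4, 0.91 for Ckb and 1.09 for Gamt, which there passed 2-fold.

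How far the falls depended on the choice of spots was computed directly. Taking the 50% of spots with the highest share of cardiomyocyte genes in either section, the log2 ratio of Ckm was -1.01 and that of Ckmt2 was -0.74, which ended the 2-fold call of Ckmt2. In the 50% of spots poorest in smooth muscle genes, Ckm was at -1.15, Ckmt2 at -0.91 and Ak4 at -0.88, so that 1 member in place of 3 passed 2-fold. The share of all genes passing 2-fold in these spots is not given here, so this count has no reference. Over 10 alternatives of scaling and of spots, none of the 7 genes changed direction.

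The remaining phosphotransfer genes, from a list of 34 of which 31 were measured and 29 had at least 20 UMIs, had no common direction. Of these 29, 15 were lower and 14 higher, with a median log2 ratio of -0.05. None was at least 2-fold lower and 4 were at least 2-fold higher, beside 5.61% and 13.7% of all genes. The transgenic quadrants lay below the control quadrants for 8 and above for 8, beside 13.1% and 30.3% of all genes.

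In creatine supply, Gatm, which carries out the first step of creatine synthesis, had 146 UMIs in the control and 185 in the transgenic section, with a log2 ratio of 0.49 (0.17 to 0.81). Its quadrants overlapped, unlike those of Gamt. Ckmt1, the ubiquitous mitochondrial creatine kinase, had 6 UMIs in the control and 39 in the transgenic section, far fewer than Ckmt2 in either section.

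Among the adenylate kinases, Ak6 went from 114 to 110 CPM, with a log2 ratio of -0.05 (-0.15 to 0.05). Ak5, with 14 and 28 UMIs, was one of the 4 genes at least 2-fold higher. Of the 8 measured genes listed as other nucleotide kinases, 4 were lower and 4 higher. The one with most UMIs was Adk, the adenosine kinase, which acts on adenosine and not on a nucleotide. Adk went from 325 to 172 CPM, with a log2 ratio of -0.92.

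For the exchange of nucleotides across the mitochondrial membrane, Slc25a4, the ADP/ATP carrier of heart and muscle, went from 16736 to 9453 CPM. Its log2 ratio was -0.82, while its paralog Slc25a5 had a ratio of 0.31, close to the median gene at 0.20. Slc25a4 quadrants ranged from 15983 to 17249 CPM in the control and from 7014 to 12072 CPM in the transgenic section. Slc25a5 quadrants ranged from 665 to 735 CPM in the control and from 773 to 961 CPM in the transgenic section. All its transgenic quadrants thus lay above the control, as for 30.3% of all genes.

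AMP sensing genes also differed in both directions. Prkaa2, a catalytic subunit of AMP-activated protein kinase (AMPK), went from 192 to 103 CPM, a log2 ratio of -0.90 (-0.99 to -0.80). Prkab2, an AMPK beta subunit, went from 82 to 254 UMIs, with a log2 ratio of 1.78 (1.42 to 2.16), and was the one gene of the 34 listed that passed 2-fold with at least 200 UMIs in a single section. Its control quadrants lay between 4.72 and 6.52 CPM and its transgenic quadrants between 15.7 and 23.3 CPM. Prkag3, an AMPK gamma subunit with 72 and 138 UMIs, was the last of the 4 genes at least 2-fold higher. Ckmt1, Ak5, Prkag3 and Slc25a5 were named after their values were seen.

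**Figure D5:**
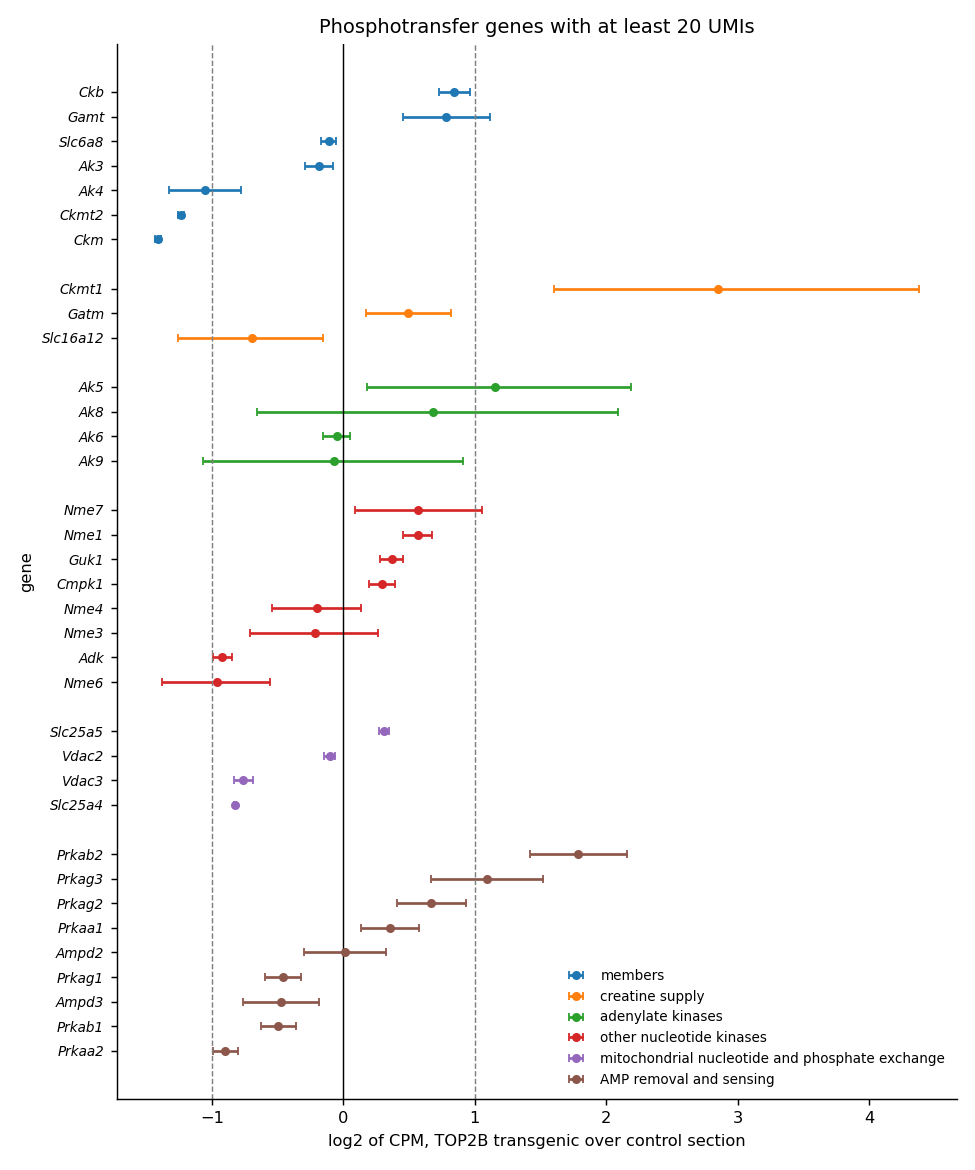
Log2 of transgenic divided by control CPM (horizontal axis) with 95% counting intervals for the 7 members and 28 of the 29 other phosphotransfer genes, grouped by role, with dashed lines at 2-fold. Ckm, Ckmt2 and Ak4 lie beyond the lower dashed line, and the genes beyond the upper line, Ckmt1, Ak5, Prkab2 and Prkag3, are not members.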

How the data were processed

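For each section the authors deposited UMI counts of every spot over tissue, made with Space Ranger 2.0.0 and not normalized. Builds GRCm39 and mm39 stand in the submitters' processing notes, and the probe set is not given in the sources used here. Moran's I was used as the score the authors deposited, without its p values. Spots are not replicates, and their UMIs were summed per section. Intervals were exact conditional binomial for ratios, Poisson for levels and Clopper-Pearson for shares. Only those for ratios were run on simulated counts. These were Poisson draws without spread between spots or mice, so the run checks the computation and not the intervals' fit to tissue. The members and gene lists were chosen with earlier results of these data known. Named were all members, the other phosphotransfer genes at least 2-fold apart with 200 UMIs in either section or with most UMIs of a group, and the 3 genes most like Ckm and Ckb. Alternatives used TMM factors (edgeR 4.0.16), size factors (DESeq2 1.42.0), both in R 4.3.3, totals that leave out the 50 most abundant genes, and subsets of spots. Nme2, Slc25a3 and Vdac1 were not analysed here, and the values of 1 other listed gene are not reported here. The sections shared 725 spot barcodes, which are array positions. In thinning, 140 control and 78 transgenic spots were too shallow and left out. Tables were handled with pandas 2.3.3 and intervals computed with scipy 1.17.1 in Python 3.11.15.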

Additional observations from a re-analysis of the deposited data

How the results depend on the processing

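The direction of all 7 members held under the 10 alternatives of scaling and spots, with log2 ratios from -1.57 to -1.01 for Ckm, -1.39 to -0.74 for Ckmt2, -1.21 to -0.88 for Ak4, 0.68 to 0.91 for Ckb, 0.58 to 1.09 for Gamt, -0.27 to -0.09 for Slc6a8 and -0.34 to -0.13 for Ak3. The lowest value of each was with TMM factors, apart from Gamt, whose lowest was in spots poorest in smooth muscle genes. TMM factors shifted every log2 ratio by -0.16 and DESeq2 size factors by -0.15. Members at least 2-fold lower numbered 1 in place of 3 in the 50% of spots poorest in smooth muscle genes, and members at least 2-fold higher numbered 1 in place of 0 (Gamt) in the 50% poorest in erythroid genes. Other phosphotransfer genes at least 2-fold lower numbered 3 with TMM factors, 3 with DESeq2 size factors, 2 without the 50 most abundant genes and 1 in spots richest in cardiomyocyte genes, in place of 0. Those at least 2-fold higher numbered 2 with TMM factors, in spots richest in cardiomyocyte genes and with at least 200 UMIs, in place of 4. With TMM factors or DESeq2 size factors, alternatives chosen after seeing the data, 5 members in place of 3 had all transgenic quadrants below the control quadrants. The matching shares over all genes under these alternatives are not given here, so the changed counts have no reference. The Ckb share of the control was 1.25% in spots poorest in smooth muscle genes. The transgenic share was 4.33% in spots richest in cardiomyocyte genes, 4.71% in spots poorest in smooth muscle genes, 6.79% in spots poorest in erythroid genes and 7.42% as a mean over spots. Apart from the scalings, which shift all genes alike, the cause of these moves was not tested. Leaving out the erythroid-rich tile, also chosen after seeing the data, turned the transgenic tile correlation of Ckm from 0.21 to -0.41 with Ckb, from 0.28 to -0.57 with Slc6a8, from 0.22 to -0.27 with Gamt and from 0.34 to -0.03 with Ak4, and took it from 0.48 to 0.08 with Ak3. No paired analysis was possible because each group had 1 section and the labels give no replicate number. Gamt and Ak4 rest on 129 to 366 UMIs per section, which limits their spatial detail.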
